A study of Mus musculus with 16 samples.

Results

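Malat1, Neat1, Miat, Meg3, Mirg, H19, Kcnq1ot1 and Airn are autosomal long noncoding RNAs (lncRNAs) that stay largely in the nucleus or come from imprinted loci. They were chosen by name from a list of 9 that also holds Rian, which was not analysed here. These 8 were followed in a table of 35920 mouse genes. RNA from mouse testis had been incubated with J2, a mouse monoclonal antibody that binds double-stranded RNA, and both the RNA it captured (J2) and the unbound remainder (flow-through, described as depleted of rRNA and dsRNA) were sequenced. The 3 conditions were wild type at postnatal day 18 (P18), Dicer knock-out at P18 (genotype label Dcr-/-), both of strain C57BL/6 x 129S4/SvJae, and adult wild type, whose strain is given as unknown. Each P18 condition had 3 libraries per fraction and the adults had 2, which makes 16 libraries in 6 groups. Age and strain cannot be told apart in the adult comparisons. The labels name neither the cells in which Dicer was deleted nor what drove the deletion, and they do not say that replicates came from separate animals, so p-values measure only the spread between these samples.

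Malat1 lies in nuclear speckles, bodies rich in splicing factors, and Neat1 is the scaffold of paraspeckles, bodies that assemble on it with a set of RNA-binding proteins. Miat is also a nuclear RNA. Meg3, Rian and Mirg are transcribed from the maternal chromosome across the Dlk1-Dio3 imprinted cluster and host many microRNAs and small nucleolar RNAs. H19 is a maternally expressed RNA beside Igf2 and the host of miR-675. Kcnq1ot1 and Airn are paternally expressed antisense RNAs that silence neighbouring genes on the same chromosome, Kcnq1ot1 across the Kcnq1 domain and Airn across the Igf2r domain. An antisense RNA can pair with the RNA of the opposite strand, and J2 binds long stretches of paired RNA from any source. Dicer, the RNase targeted in the knock-out, cuts long double-stranded RNA and the hairpins of microRNA precursors.

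By the RefSeq annotation of GRCm38.p6, which is mm10, Malat1 (ENSMUSG00000092341) lies at chr19:5795690-5802672 and Neat1 (ENSMUSG00000092274) at chr19:5824708-5845480. Miat (ENSMUSG00000097767) lies at chr5:112213228-112228948. Meg3 (ENSMUSG00000021268) lies at chr12:109540996-109571729 and Mirg (ENSMUSG00000097391) at chr12:109734981-109749458. H19 (ENSMUSG00000000031) lies at chr7:142575530-142578146 and Kcnq1ot1 (ENSMUSG00000101609) at chr7:143213111-143296547. Airn (ENSMUSG00000078247) lies at chr17:12741311-12859884. All of these are noncoding genes, and Kcnq1ot1 lies within Kcnq1 while Airn overlaps Igf2r and Mas1. The kit marks strand, but whether counting used it is not given in the sources used here, so reads of Kcnq1ot1 or Airn and of the gene on the other strand cannot be told apart where they overlap.

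The hairpins inside Meg3, Mirg and H19 are substrates of Dicer, and 5 of their mature microRNAs are shown from RefSeq (GRCm38.p6) with the seed, bases 2 to 8, in capitals. The hosts Meg3, Mirg and H19 hold 3, 19 and 2 mature microRNAs in that table. miR-770-5p is within Meg3 (chr12:109563710-109563731, plus strand), miR-410-3p within Mirg (chr12:109743764-109743784, plus strand) and miR-675-5p within H19 (chr7:142577112-142577133, minus strand). miR-453 and miR-496a-5p, both within Mirg, share a seed, and no other seed is shared among the microRNAs of these hosts.
miR-770-5p: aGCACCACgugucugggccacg
miR-410-3p: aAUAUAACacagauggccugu
miR-675-5p: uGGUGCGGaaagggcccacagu
miR-453: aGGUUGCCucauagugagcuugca
miR-496a-5p: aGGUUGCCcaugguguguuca
The table lists the 2 microRNA genes of Meg3, the 10 of Mirg and Mir675 of H19 at 0 in all 16 libraries. Between the start of Meg3 and the end of Mirg it holds 77 features, among them 60 microRNA and 13 small nucleolar RNA genes, and the features above 0 in any library were 2, Meg3 and Mirg themselves. Among all genes listed, 10.42% of 1190 microRNA genes and 20.88% of 1063 small nucleolar RNA genes were above 0 somewhere, against 73.75% of 2712 lncRNA genes.

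Of the 4 lncRNAs tested within J2, Meg3 and Kcnq1ot1 had the largest shares of their signal in a single library, and their promoters (RefSeq, GRCm38.p6, from 250 bases before to 50 bases after the start) are shown with each CCAAT, on either strand, in capitals. CCAAT is the box that the factor NF-Y binds. The Kcnq1ot1 window is chr7:143296498-143296797 (minus strand) and the Meg3 window chr12:109540746-109541045 (plus strand).
Kcnq1ot1: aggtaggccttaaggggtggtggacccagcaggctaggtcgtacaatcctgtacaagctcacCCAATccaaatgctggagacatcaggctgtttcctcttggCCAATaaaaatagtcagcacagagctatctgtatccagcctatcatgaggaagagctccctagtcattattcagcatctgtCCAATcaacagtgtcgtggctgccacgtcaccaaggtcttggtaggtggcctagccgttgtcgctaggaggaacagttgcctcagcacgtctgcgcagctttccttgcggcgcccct
Meg3: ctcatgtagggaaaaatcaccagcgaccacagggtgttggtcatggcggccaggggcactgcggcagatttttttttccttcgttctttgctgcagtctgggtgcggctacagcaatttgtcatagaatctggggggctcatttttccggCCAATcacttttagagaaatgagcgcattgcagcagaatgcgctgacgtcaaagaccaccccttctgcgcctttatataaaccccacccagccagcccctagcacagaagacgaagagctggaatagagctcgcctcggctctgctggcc
The Kcnq1ot1 window holds 3 matches and this Meg3 window 1. The same table lists a second start of Meg3, whose window (chr12:109545148-109545447, plus strand) holds 0. Of 32851 mouse promoters of this length 37.41% hold at least 1 match and 3.37% hold at least 3. A match is a description of the letters and not a measured site.

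The deposited values are the authors' normalized counts, scaled between libraries and not per length, so levels are compared between libraries for each gene and not between genes. Flow-through libraries summed to between 6.054 and 34.86 M units (M, 1e+06), J2 libraries to between 0.4456 and 0.8237 M. By an approximate worth of 1 read, 10 units were 1.203 to 4.988 reads of a flow-through library and 19.37 to 86.33 reads of a J2 library. Support for this worth was weak in flow-through. There 0 to 9 genes per library lay at whole multiples of it, against 20 to 3049 in J2. In knock-out flow-through replicate 1 it was put at 8.106 units, above the Meg3 value of 1.39 there. The flow-through read numbers are therefore uncertain, and by them a low flow-through value rests on very few reads. The second adult J2 library stands apart: it had 22683 genes above 0, against 6874 to 11591 in the other J2 libraries, and mitochondrial genes held 10.83% of its units, against 0.8353% to 1.243%. It is the library of the highest Kcnq1ot1 and Airn values and the lone J2 library with Mirg above 0. The germ cell markers Ddx4, Dazl, Mael and Tex14 were each above 0 in every group, with sums of 137.6 to 700.3 units per library. The 12 Sertoli markers summed to 102.9 to 758.5 units per library, and Clu, the one of highest mean, was 39.21 to 375.3 units. Amh, the Sertoli marker of lowest mean, was listed at 0 in all flow-through libraries and in wild-type P18 J2. Dicer1 was 5.10, 12.4 and 0 in wild-type P18 flow-through and 0, 3.68 and 8.33 in the knock-out. The J2 values of Dicer1 were 11.3, 0 and 8.64 in wild type, against 3.39, 0 and 0 in the knock-out. These values overlap and cannot check the genotype labels at this depth. In bulk tissue fewer cells of a type and less RNA per cell cannot be told apart.

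Of the 8 lncRNAs, Malat1, Neat1, Meg3, Mirg and Kcnq1ot1 reached 10 units or more in 2 or more libraries and were tested. H19, Airn and Miat did not. Meg3 passed through J2 libraries alone, Mirg through wild-type flow-through alone and Kcnq1ot1 through adult libraries alone, so that they passed is no evidence of a difference. Within J2, Mirg was not tested, and within flow-through only Malat1 and Mirg were. Malat1 was above 0 in every library. Neat1 was listed at 0 in 3, Kcnq1ot1 in 2, Meg3 in 7, Mirg in 10, Airn in 10, Miat in 12 and H19 in 13. The plot of the 8 lncRNAs by library shows these values.

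**Figure D1:**
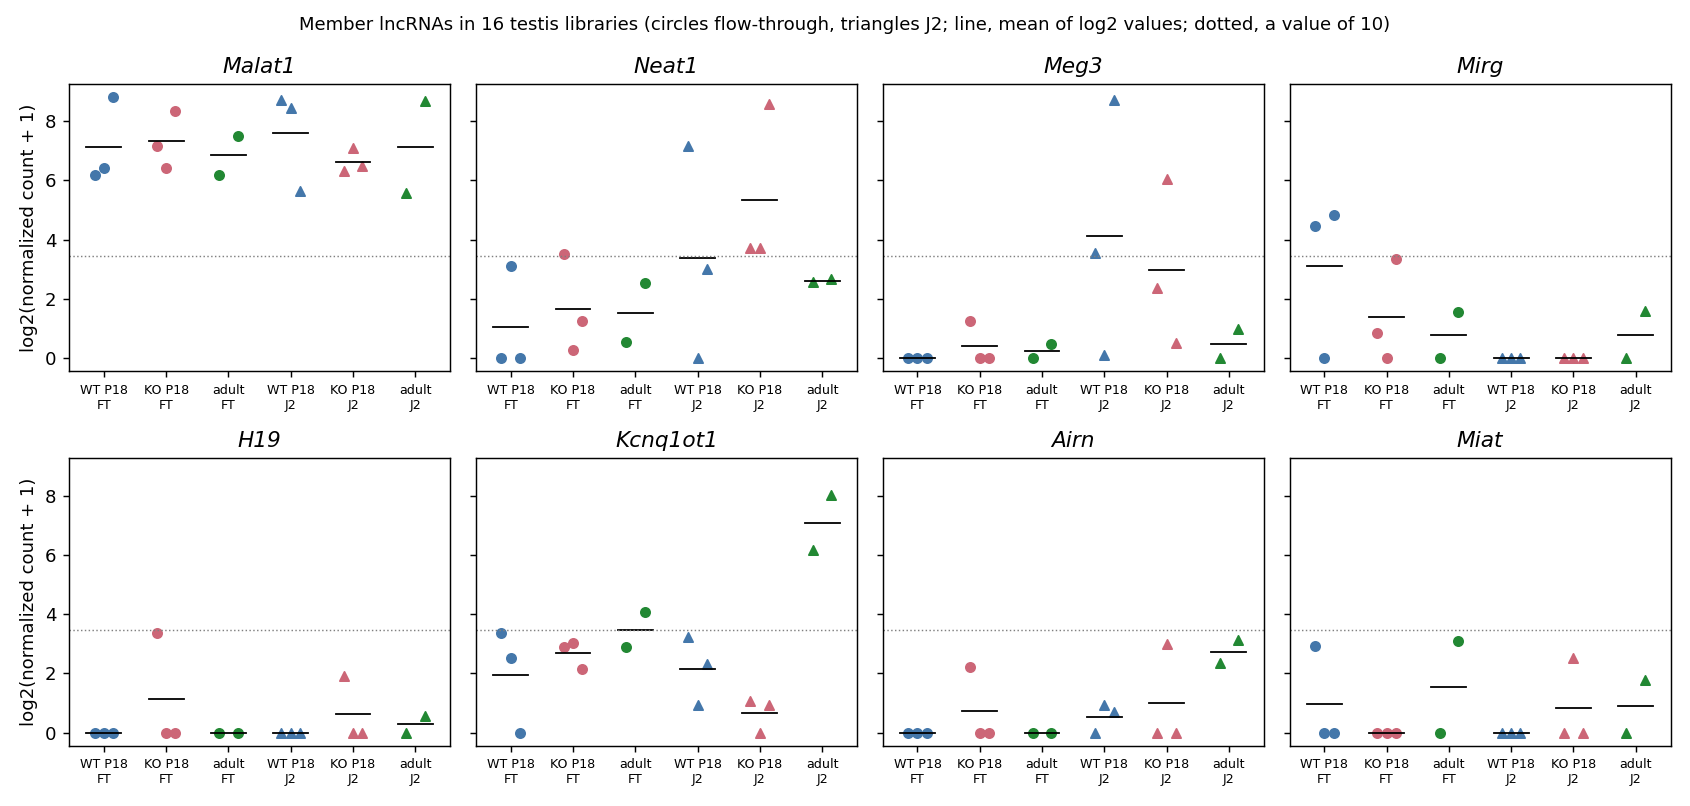
Each panel plots the log2 of the normalized count plus 1 (vertical axis) of 1 lncRNA in the 6 groups (horizontal axis); circles are flow-through libraries, triangles J2 libraries, the line is the mean of the log2 values and the dotted line a value of 10. Malat1 lies above the dotted line in all 16 libraries, and for Kcnq1ot1 both adult J2 libraries (69.8 and 260.5) lie above every other library.

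Malat1 was measured in all libraries of both fractions. It read 71.8, 83.6 and 452 in wild-type P18 flow-through, 143, 85.6 and 324 in knock-out P18 flow-through and 71.4 and 181 in adult flow-through. In J2 it read 417, 348 and 49.4 in wild-type P18, 79.2, 134 and 89.1 in knock-out P18 and 47.1 and 411 in adults. The ranges of the fractions overlapped in all 3 conditions. Libraries of a group differed by several-fold except in adult flow-through and knock-out J2, where the spread was smaller. By their means the groups ran from wild-type P18 J2, with 271 ± 195 (SD, n = 3), through adult J2 with 229 ± 258 (SD, n = 2), wild-type flow-through with 202 ± 216 (SD, n = 3), knock-out flow-through with 184 ± 125 (SD, n = 3) and adult flow-through with 126 ± 77.8 (SD, n = 2) to knock-out J2 with 101 ± 29.2 (SD, n = 3). No neighbours in that order differed by more than their spread. By limma on log2(value + 1), the J2 against flow-through difference of Malat1 was 0.47 (SE 0.95, adjusted p = 0.886) in wild type, −0.69 (SE 0.95, adjusted p = 0.838) in the knock-out and 0.29 (SE 1.16, adjusted p = 0.978) in adults. The knock-out against wild-type difference was −0.97 (SE 0.99, adjusted p = 0.912) in J2 and 0.18 (SE 0.76, adjusted p = 0.984) in flow-through. None of these passed the threshold of 0.05. Between the fractions, 0.903%, 0.357% and 0.315% of the 9526 genes tested were called in wild type, the knock-out and adults, and 0% between the genotypes in either fraction.

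Neat1 values were low in flow-through and were high in 2 J2 libraries. It read 0, 7.75 and 0 in wild-type P18 flow-through, 10.4, 0.217 and 1.37 in knock-out flow-through and 0.463 and 4.76 in adult flow-through. In J2 it read 142, 0 and 6.99 in wild-type P18, 12.3, 12.3 and 385 in the knock-out and 4.91 and 5.37 in adults. All 3 knock-out J2 values lay above all 3 knock-out flow-through values, and both adult J2 values lay narrowly above both adult flow-through values, while the wild-type fractions overlapped. How many of all genes separate in this way was not counted. Groups without overlap, here and for the genes below, are therefore a description of these values only. The J2 against flow-through difference was 3.67 (SE 1.68, unadjusted p = 0.0419, adjusted p = 0.413, limma) in the knock-out, 2.34 (SE 1.68, adjusted p = 0.560) in wild type and 1.08 (SE 2.06, adjusted p = 0.960) in adults. Knock-out replicate 3 held 67.72% of the summed Neat1 signal of the 8 J2 libraries, and without that library the knock-out difference was 2.05 (adjusted p = 0.796). In that library the 7 macrophage markers summed to 184.2 units, with 3 of 7 above 0 and Cd68, Mrc1, C1qa and Cd14 at 0, against 35.67 and 42.16 in the other knock-out J2 libraries. Lyz2 alone gave 142.4 of these units, while Adgre1 was 0.7594 there and 15.43 in replicate 2. The 7 peritubular and vessel markers summed to 349.7 units in replicate 3 (5 of 7 above 0, Cnn1 and Des at 0), against 93.59 and 100.2. Tagln alone gave 158.5 of these units, while Cdh5 was 10.99 there and 14.34 in replicate 1. The red cell, germ cell, spermatogonial and meiotic sums were also highest in replicate 3 among the 3 knock-out J2 libraries, at 193.7, 502.3, 153.4 and 1180 units. Genes within each set went both ways. Hba-a1 (131.3), Mael (325.2), Kit (55.62) and Ldhc (633.6) were highest there. Hbb-bs (46.91), Tex14 (0) and Piwil1 (0.8306) were lowest there, and Sall4 was 0, against 38.6 in replicate 1. The Sertoli sum, 613.9, was the lowest, and the Leydig sum, 121.9, lay between those of the other libraries. The part of these cells in the Neat1 value was not tested.

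Paraspeckle and nuclear speckle proteins are the partners of Neat1 and Malat1 in these bodies. Of 23 paraspeckle protein genes 21 were tested over all libraries, and 0 were called in any comparison, as in Hnrnpk, the one of highest mean (38.2 to 350.5 units over the libraries), and in Sfpq, a core paraspeckle protein (0 to 186.7). Their median difference between J2 and flow-through was 0.51 in wild type, 0.12 in the knock-out and 0.64 in adults. Over all genes tested it was −0.05, −0.15 and 0.05. Of 22 nuclear speckle protein genes, 1 fell in adult against wild-type P18 J2, out of 21 tested there. It was Srrm1, which encodes a splicing coactivator, with 88.1, 157.8 and 56.8 units at P18 and 0 and 8.2 in adults (−4.95, SE 1.08, adjusted p = 0.0227, limma), in a comparison where 5.46% of all genes were called and spermatid markers also differed. The Srrm1 call was lost without a filter (adjusted p = 0.0953), with a filter of 50 units (0.0585), with the 2 groups alone (0.0872) and without wild-type J2 replicate 1 (0.064), wild-type J2 replicate 2 (0.0928) or adult J2 replicate 1 (0.972). Among the speckle genes, Son, a scaffold of the speckle, spanned 12.7 to 55.5 units in flow-through, below all its J2 values of 85.8 to 713.5, and was not called in any condition. The median difference between J2 and flow-through of the 22 speckle genes was −0.11 in wild type, −0.09 in the knock-out and 0.82 in adults.

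Miat was seen in 4 libraries. It read 6.67 in wild-type P18 flow-through replicate 1, 7.5 in adult flow-through replicate 2, 4.73 in knock-out J2 replicate 2 and 2.43 in adult J2 replicate 2. No group held more than 1 library above 0, so no level can be set for any group.

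Meg3 was near 0 in flow-through and reached high values in single J2 libraries. It was listed at 0 in all 3 wild-type P18 flow-through libraries, at 1.39, 0 and 0 in the knock-out and at 0 and 0.382 in adults. In J2 it read 10.8, 0.0911 and 415 in wild-type P18, 4.17, 65.5 and 0.424 in the knock-out and 0 and 0.965 in adults. Wild-type J2 values lay above the flow-through values, which were all 0, but the lowest of them was also near 0. The J2 against flow-through difference in wild type was 4.13 (SE 1.61, unadjusted p = 0.0187, adjusted p = 0.242, limma), and without wild-type J2 replicate 3 it was 1.85 (adjusted p = 0.506). It was 2.56 (SE 1.61, adjusted p = 0.581) in the knock-out and 0.25 (SE 1.97, adjusted p = 0.990) in adults. Replicate 3 of wild-type J2 held 83.51% of the Meg3 signal of the 8 J2 libraries, a share that 1.874% of the 6882 genes tested in J2 reached or exceeded. That library also had the highest Leydig sum of the wild-type J2 libraries (7 of 7 markers above 0, 210.8 units, range 88.68 to 210.8) and the highest macrophage sum (5 of 7 above 0, Adgre1 and Cd14 at 0, 94.1 units, range 2.447 to 94.1), while in J2 replicate 2 Star and Hsd3b6, genes of steroid synthesis in Leydig cells, were higher (50.03 and 46.91, against 7.455 and 5.908). The peritubular and vessel sum was also highest in replicate 3 (170.6 units, against 78.26 and 124.8). Within that set Acta2 was higher in replicate 2 (104.5, against 83.14) and Myh11 in replicate 1 (47.31, against 31.52). The Sertoli (511.7), germ cell (254.5) and spermatogonial (47.85) sums lay between those of the other replicates. The red cell (105.5) and meiotic (1190) sums were the lowest. By the approximate worth of 1 read, replicate 3 held 2.887 M reads, against 1.226 M and 1.475 M. The part of these cells and of depth in the Meg3 value was not tested.

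Mirg, from the same cluster, had its highest values in flow-through. It read 21.0, 0 and 27.7 in wild-type P18 flow-through, 0.796, 0 and 9.21 in the knock-out and 0 and 1.92 in adults. In J2 it was listed at 0 in 7 of 8 libraries and at 2.01 in adult replicate 2. The highest values were those of wild-type flow-through replicates 1 and 3, and replicate 2 of the same group was at 0. The J2 against flow-through difference in wild type was −3.10 (SE 1.11, unadjusted p = 0.0117, adjusted p = 0.199, limma). Without wild-type flow-through replicate 2 it was −4.65 and passed the threshold (adjusted p = 0.0351), the only member called in any fit that left out a library. In that fit 0.754% of all genes were called. It dropped the library of the group at 0 and kept those through which Mirg passed the filter, while wild-type J2 was at 0 throughout. The call is therefore no evidence of a difference. In the knock-out the J2 against flow-through difference was −1.40 (SE 1.11, adjusted p = 0.667). Within flow-through the knock-out against wild-type difference was −1.70 (SE 1.46, adjusted p = 0.880), and the groups overlapped. On the uncertain read scale given above, these flow-through values would correspond to few reads, and a value of 0 may say less there than in J2.

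The genes around Meg3 and Mirg were low. Dlk1, the paternally expressed gene that gives the cluster its name, was above 0 in 4 libraries, at 4.6 and 6.2 in knock-out flow-through and at 0.9 in knock-out J2 libraries 1 and 3. Begain was above 0 in 3 libraries, Dio3 in 1 and Rtl1 in none. In the heat map of the imprinted clusters, the high J2 values of Meg3 have no counterpart among these genes.

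**Figure D2:**
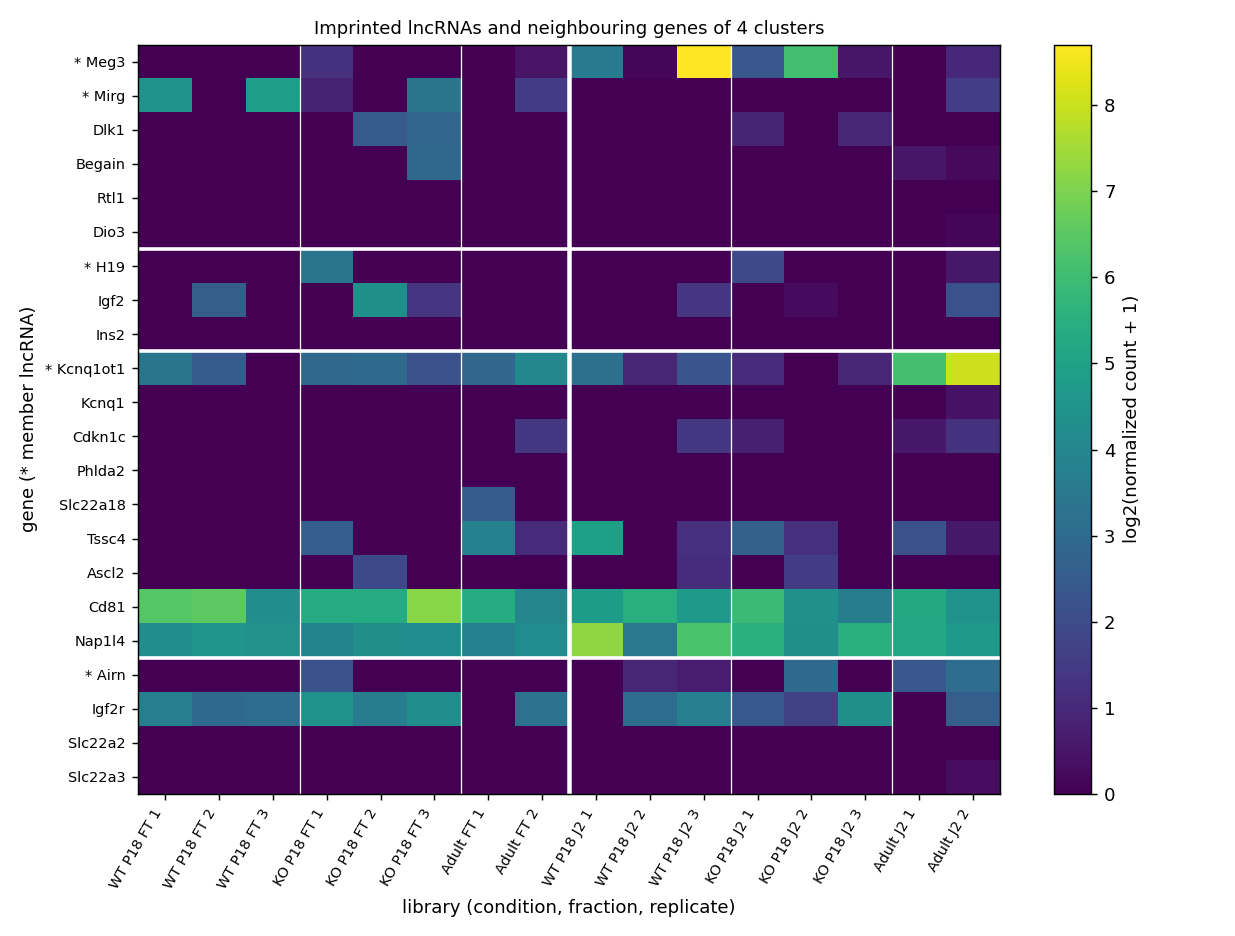
The colour gives log2 of the normalized count plus 1 for 22 genes (rows, lncRNAs marked with a star, white lines between the clusters of Meg3, H19, Kcnq1ot1 and Airn) in the 16 libraries (columns, flow-through left and J2 right of the thick line). Meg3 is bright in wild-type J2 replicate 3 (415) and Kcnq1ot1 in both adult J2 libraries, while Cd81 and Nap1l4 are above 0 in all 16 libraries.

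Kcnq1ot1 was higher in adult J2 than in any other group. It read 9.24, 4.71 and 0 in wild-type P18 flow-through, 6.43, 7.1 and 3.47 in knock-out flow-through and 6.36 and 15.6 in adult flow-through. In J2 it read 8.31, 0.920 and 3.93 in wild-type P18, 1.1, 0 and 0.911 in the knock-out and 69.8 and 260.5 in adults. Both adult J2 values lay above all 14 other libraries. By their means the groups ran from adult J2, with 165 ± 135 (SD, n = 2), through adult flow-through with 11 ± 6.56 (SD, n = 2), knock-out flow-through with 5.67 ± 1.93 (SD, n = 3), wild-type flow-through with 4.65 ± 4.62 (SD, n = 3) and wild-type J2 with 4.39 ± 3.72 (SD, n = 3) to knock-out J2 with 0.671 ± 0.589 (SD, n = 3). Only the step from adult J2 to adult flow-through separated neighbours without overlap.

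Within J2 the adult against wild-type P18 difference of Kcnq1ot1 was 4.93 (SE 1.40, unadjusted p = 0.00569, adjusted p = 0.0892, limma), which missed the threshold. Kcnq1ot1 entered this test only through its 2 adult values. It was higher in 2 of 2 adult libraries than in 3 of 3 at P18. The call depended on the settings. It passed with a pseudocount of 5 (3.99, adjusted p = 0.0239), with a filter of 50 units (4.93, adjusted p = 0.0221) and without the mean trend (4.93, adjusted p = 0.0340), where 5.8%, 5.03% and 5.46% of all genes were called. Over all alternatives the adjusted p lay between 0.022 and 0.27. Adult replicate 2 held 75.4% of the J2 signal of Kcnq1ot1, and without it the difference was 3.99 (adjusted p = 0.219), with the single remaining adult library taken to vary like the other groups. That is the J2 library with the most genes above 0 and the highest mitochondrial share, whose part in the result was not tested, and without adult replicate 1 the difference was 5.88 (adjusted p = 0.097). Relative to its own flow-through, adult J2 Kcnq1ot1 was higher by 3.62 (SE 1.40, unadjusted p = 0.0183, adjusted p = 0.657), with no overlap. The age by fraction interaction was 3.42 (SE 1.81, adjusted p = 0.953), so a difference between the ages in J2 enrichment was not shown.

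Adult testis holds spermatids, which P18 testis lacks, and the markers of those cells moved with age. The 8 spermatid markers summed to 1725 and 1996 units in adult J2. At P18 their J2 sums were 0 to 2.453 in wild type and 0 to 2.223 in the knock-out. In adult against wild-type J2, 8 of 8 were called higher. All 8 passed the filter there only through the 2 adult libraries, so the calls add no evidence beyond these values. With no filter on low values 0 of the 8 were called. In flow-through they summed to 2242 and 2534 units in adults and 5.09 to 13.85 in wild type. Prm1, Tnp2, Acrv1 and Akap4 were at 0 in all wild-type P18 J2 libraries. The part of spermatids in the adult Kcnq1ot1 values was not tested.

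In the P18 knock-out Kcnq1ot1 lay lower in J2 than in flow-through without overlap. The difference was −2.02 (SE 1.15, adjusted p = 0.525), and its sign turned to 0.30 when libraries were rescaled to a common total. In wild-type P18 the fractions overlapped (0.20, SE 1.15, adjusted p = 0.990). The knock-out against wild-type difference in J2 was −1.49 (SE 1.25, adjusted p = 0.906), and the groups overlapped.

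Genes of the Kcnq1 domain did not show the adult J2 values of Kcnq1ot1. Kcnq1, the potassium channel gene on the opposite strand, was listed at 0 in 15 libraries and at 0.3475 in adult J2 replicate 2. Cdkn1c, a growth-restraining cell cycle inhibitor of the domain, was above 0 in 5 libraries, at no more than 1.6 units. Phlda2 was at 0 throughout. Nap1l4, a histone chaperone, ranged from 10.2 to 151.4 units and Cd81, a tetraspanin, from 11.7 to 141.1, with their highest values in wild-type J2 replicate 1 and knock-out flow-through replicate 3. The test called 0 of the 4 imprinted neighbours that could be tested, of 17 listed, in any comparison.

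Airn and H19 were low everywhere. Airn was listed at 0 in all wild-type and adult flow-through libraries and at 3.62, 0 and 0 in the knock-out. In J2 it read 0, 0.912 and 0.627 in wild-type P18, 0, 6.90 and 0 in the knock-out and 4.13 and 7.65 in adults. Both adult J2 values lay above those of adult flow-through and of wild-type J2, as for Kcnq1ot1, though all were under 10 units and were not tested. Igf2r, the receptor gene that Airn overlaps, ranged from 0 to 20.9 units and was 0 and 5.3 in the 2 adult J2 libraries. H19 read 9.30 in knock-out flow-through replicate 1, 2.80 in knock-out J2 replicate 1 and 0.476 in adult J2 replicate 2 and was listed at 0 in the other 13 libraries. Its neighbour Igf2, a fetal growth factor, was at most 18.9 units and at 0 in 10 libraries.

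The tests on the fractions gave 0 calls among the 5 lncRNAs. In wild-type P18 J2 against flow-through, 0.903% of 9526 genes were called (50 higher, 36 lower). An unadjusted p under 0.05 (limma) was found for 1325 of the 9526 genes and for 2 of the 5, Meg3 and Mirg. The calls fell to 12 higher and 15 lower without flow-through replicate 1, 14 and 16 without flow-through replicate 3, 25 and 17 without J2 replicate 1 and 15 and 18 without J2 replicate 2. In the knock-out 0.357% were called and 1094 of the 9526 genes were under 0.05 unadjusted, with Neat1 the 1 of 5. In adults 0.315% were called and 633 of the 9526 genes were under 0.05 unadjusted, with Kcnq1ot1 the 1 of 5. The median difference of the 5 was 0.47, −0.69 and 0.29, against −0.05, −0.15 and 0.05 for all genes. Rescaling to a common total moved the median of all genes to 1.87, 2.16 and 2.74. It then called Malat1 in wild type (4.33, adjusted p = 0.0064), Malat1 and Neat1 in the knock-out (3.41 and 5.69) and Malat1 and Kcnq1ot1 in adults (4.75 and 7.21), where 27%, 30.1% and 36.4% of all genes were called. The 10 highest genes of each library held 95.75% to 98.83% of units in flow-through and 43.61% to 67.51% in J2. With the common total without the 10 highest genes, the medians were −0.17, −0.079 and 0.12. No member was then called, and over all genes the calls were 27 higher and 39 lower, 5 and 18, and 9 and 14.

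The tests on genotype and age also gave 0 calls among the lncRNAs. In knock-out against wild type, 0% of 6882 genes in J2 and 0% of 7141 in flow-through were called by limma, with 440 and 436 genes under an unadjusted p of 0.05, none of them a member. Without wild-type J2 replicate 1 the J2 comparison called 0 higher and 2 lower. The genotype by fraction and age by fraction interactions called 0% of 9526 genes each (455 and 514 unadjusted, again no member). The age by fraction count was 43 higher and 0 lower without adult flow-through replicate 2, 97 and 13 without a filter and 356 and 3 with a common total. In adult against wild-type P18, 5.46% of genes were called in J2 (349 higher, 27 lower) and 3.23% in flow-through (220 higher, 11 lower). Apart from Kcnq1ot1, the J2 differences were −3.64 for Meg3 (SE 2.47, adjusted p = 0.586), −0.77 for Neat1 (SE 2.13, adjusted p = 0.919) and −0.46 for Malat1 (SE 1.11, adjusted p = 0.900). In flow-through Mirg differed by −2.33 (SE 1.63, adjusted p = 0.660) and Malat1 by −0.29 (SE 0.85, adjusted p = 0.922). The knock-out and adult comparisons share the wild-type libraries.

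**Figure D3:**
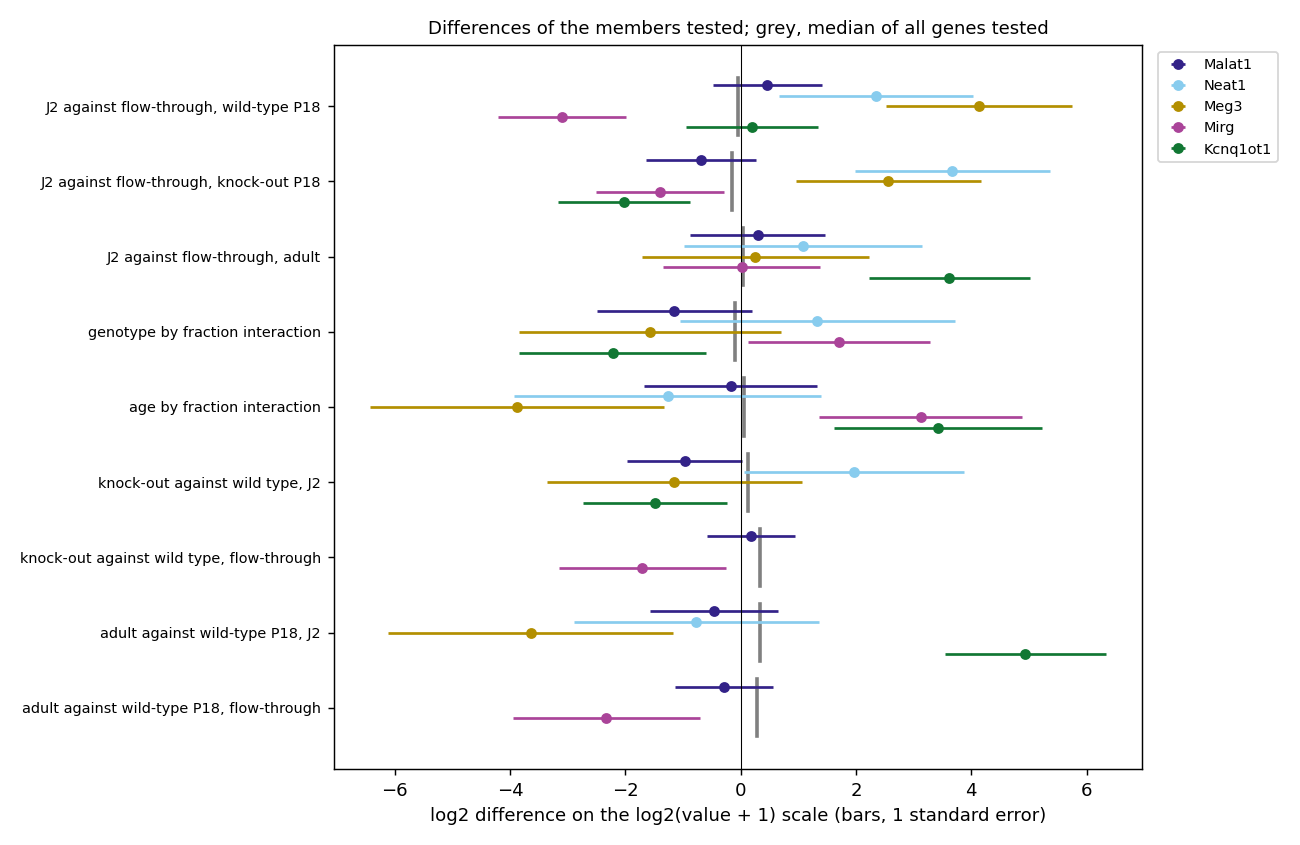
Points give the log2 difference of each tested lncRNA in the 9 comparisons (rows) on the log2(value + 1) scale, bars 1 standard error, and the grey mark the median of all genes tested. Kcnq1ot1 in adult against wild-type J2 (4.93) lies farthest to the right and Meg3 in the age by fraction interaction (−3.88) farthest to the left; none passed the adjusted threshold.

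The members differed in how far a single library carried their signal. In J2 the highest library held 26.5% of the Malat1 sum over 8 libraries, 67.72% of Neat1, 75.4% of Kcnq1ot1 and 83.51% of Meg3, and the library was a different one for each. The median gene tested had 41.49% in its highest J2 library. Shares at or above those of Neat1 and Kcnq1ot1 were found for 10.19% and 4.824% of genes, and 88.99% of genes had a share at or above that of Malat1. In flow-through the shares were 31.99% for Malat1 and 45.66% for Mirg, with a median gene at 32.84%.

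**Figure D4:**
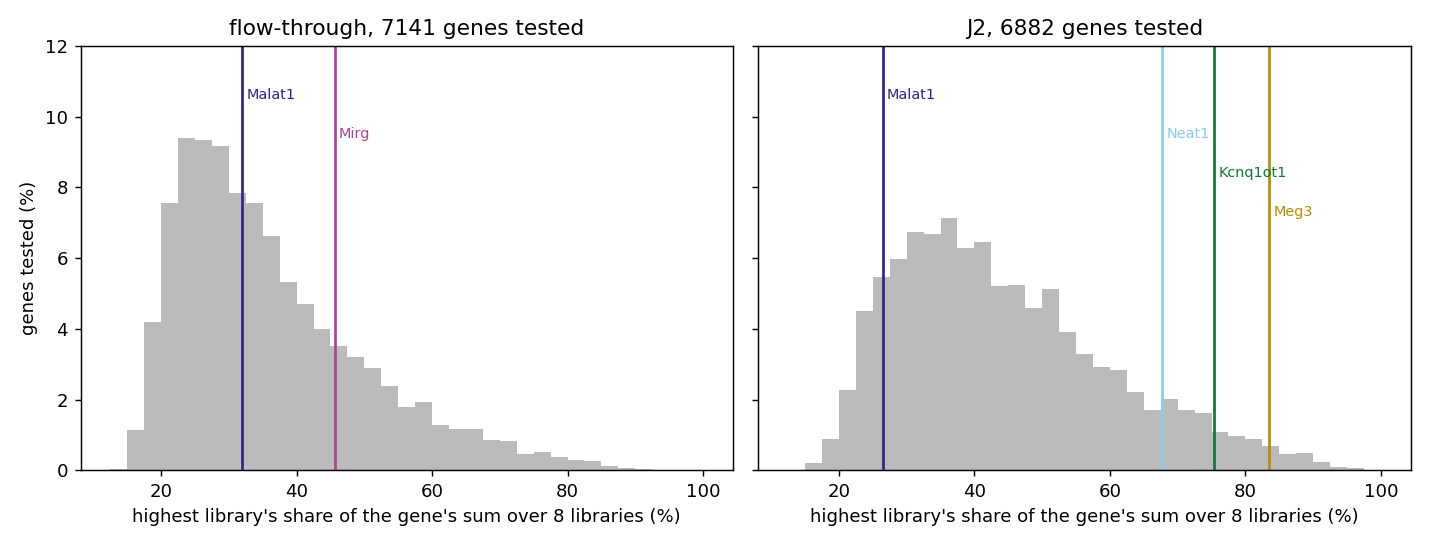
The histograms give the percentage of genes tested (vertical axis) by the share of a gene's summed signal found in its highest library of 8 (horizontal axis, %), for flow-through on the left and J2 on the right; coloured lines mark the lncRNAs. In J2, Malat1 (26.5%) lies left of the bulk of genes and Meg3 (83.51%) in the right tail.

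Across the 16 libraries the profile of Kcnq1ot1 was most like those of Nudt4 (Pearson r of log2 values 0.835), Akap4 (0.758), a protein of the sperm tail sheath, and Smcp (0.737), a protein of the sperm mitochondrial capsule, among 696 genes with a mean of at least 50. The profile of Malat1 was most like Kpnb1 (0.785), which encodes a nuclear import receptor, Ccnt1 (0.619) and Zc3h14 (0.569). That of Neat1 was most like Ywhah (0.807), Eprs (0.773) and Morf4l1 (0.710). That of Meg3 was most like Tex101 (0.667), G3bp1 (0.646) and Mif4gd (0.641), and that of Mirg like Crat (0.635), Prkar1a (0.597) and Kat6b (0.587). The points of these correlations share library, fraction and depth, and the high values of Kcnq1ot1 and Meg3 come from 1 or 2 libraries.

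Other lncRNAs and imprinted genes were not called either. Of 42 other lncRNA names, aliases included, 24 were in the table and 5 were tested, with 0 called in any of the 9 comparisons. The highest by mean were 2900097C17Rik, the mouse gene also known as Norad, at 0 to 79.1 units, and 1700020I14Rik, at 0 to 73.7. In J2, 2900097C17Rik read 0, 0.9125 and 5.326 in wild-type P18 and 41.48, 79.07 and 75.71 in the knock-out, without overlap, and the difference was not called (4.8, SE 1.1, adjusted p = 0.634, limma). Of 27 other imprinted genes 25 were in the table and 13 were tested, with 0 called. Peg10, a gene derived from a retrotransposon, ranged from 14.4 to 59.96 units in flow-through, and its J2 values spanned 15.98 to 431.3, and Ube3a, a ubiquitin ligase gene, spanned 36.4 to 191.6 units in flow-through, with J2 values of 1.14 to 83.5. Both pairs of ranges overlapped.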

How the data were processed

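RNA-seq libraries of J2-bound and flow-through testis RNA were made with a stranded kit (NuGEN Ovation SoLo), per the labels' protocols. The submitters' processing notes name FastQC, Trimmomatic, Salmon, DESeq2 and the build mm10, with settings and the use of strand not given in the sources used here. The authors deposited a table of normalized counts (a signal, not whole reads) that gives every Ensembl gene's value in each library. Of 35920 genes 35446 matched a symbol, and 0 columns were left unmatched. Whole reads could not be recovered, so no count model was run.

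The log2 of each value plus 1 was fitted in R 4.3.3 by limma 3.58.1 (empirical Bayes with a mean trend, two-sided, Benjamini-Hochberg over all genes tested, threshold 0.05), on genes with a value of at least 10 in at least 2 libraries fitted. This scale understates the change of low genes. J2 against flow-through and both interactions used all 16 libraries. Genotype and age were compared within each fraction over its 8 libraries. The procedure was tested on simulated data with normally distributed noise. Those data were not built to hold values high in a single library, such as those of Meg3, so the test does not cover them.

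The members and lists were chosen with earlier results of these data known. The text names all members in the table, list genes that were called or had the highest means, and the 3 genes with the highest correlation to each tested member. Alternatives were pseudocounts of 0.5 and 5, no filter and a filter of 50, 3 other scalings (common total without mitochondrial genes, the same without the 10 highest genes, quantile), no trend, only the groups compared, a replicate block and leaving out each library.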

Additional observations from a re-analysis of the deposited data

How the results depend on the processing

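Over 339 values of single lncRNAs under other settings, 322 kept their direction and side of the threshold, 7 passed it with the same direction and 10 turned sign, of which 1 also passed it; over 252 values with 1 library left out, the first 3 numbers were 221, 1 and 30.

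Rescaling to a common total gave 1 called lncRNA in wild type (Malat1, 4.33), 2 in the knock-out (Malat1, 3.41, a change of sign, and Neat1, 5.69) and 2 in adults (Malat1, 4.75, and Kcnq1ot1, 7.21) for J2 against flow-through. It moves the median gene by the values given in the report, and 5 lncRNAs again reached 10 units in 2 libraries, with Airn in place of Mirg. With it Kcnq1ot1 in knock-out J2 against flow-through turned to 0.30, Malat1 in the age by fraction interaction to 0.42 and Malat1 in knock-out against wild-type flow-through to −0.44. The common total without the 10 highest genes turned the last pair to 0.085 and −0.13. Quantile scaling turned Malat1 in wild-type J2 against flow-through to −0.042, Meg3 and Mirg in adults to −0.044 and −0.18 and Malat1 in the age interaction to 0.19. In adult against wild-type P18 J2, 1 lncRNA, Kcnq1ot1, was called with a pseudocount of 5 (3.99), a filter of 50 (4.93) and no trend (4.93). The cause was not tested.

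With 1 library left out, called lncRNAs ranged from 0 to 1 in wild-type J2 against flow-through (Mirg, −4.65). For J2 against flow-through, Malat1 ranged from −0.087 to 1.44 in wild type and −1.26 to 1.84 in adults, Kcnq1ot1 from −0.78 to 0.90 in wild type, and Meg3 and Mirg in adults from −0.23 to 0.74 and −0.77 to 0.82. In the genotype interaction Neat1 ranged from −0.36 to 3.22 and Meg3 from −3.57 to 0.71. In the age interaction Malat1 ranged from −1.72 to 1.38 and Neat1 from −2.95 to 0.62. Meg3 in knock-out against wild-type J2 ranged from −3.16 to 1.13 and Malat1 in flow-through from −0.33 to 1.02. In adult against wild-type, Malat1 ranged from −2.02 to 1.09 in J2 and −0.96 to 0.55 in flow-through, and Neat1 from −2.46 to 1.12 in J2. Kcnq1ot1 in adult against wild-type J2 ranged from 3.99 to 5.88. It left the test when an adult library was dropped, so those values keep the filter of all 8 libraries, an alternative chosen after seeing the data. Over all genes, calls in adults moved from 14 higher and 16 lower to 6 and 10 or 59 and 11 without flow-through replicate 1 or 2 and to 1 and 10 without J2 replicate 1, and in the knock-out from 16 and 18 to 5 and 15 or 6 and 15 without J2 replicate 2 or 3. In adult against wild-type J2 they fell from 349 and 27 to 5 and 27 or 1 and 17 without adult replicate 1 or 2, and in flow-through from 220 and 11 to 0 and 5 or 0 and 11; the spermatid markers left the J2 test there, and with the filter of all 8 libraries J2 had 311 and 24 or 314 and 22.

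With the shared library code as a replicate block, 0 of the 5 lncRNAs were called, and for J2 against flow-through over all genes the calls were 7 higher and 17 lower in wild type (50 and 36 without the block), 4 and 16 in the knock-out (16 and 18) and 2 and 13 in adults (14 and 16). The code tied 1 flow-through to 1 J2 library, whose deviations from the group means correlated at −0.026 to 0.031, and 4 of 8 flow-through libraries correlated best with the J2 library of their own code, so no pairing was used. By the uncertain estimate of 1.203 to 4.988 reads for 10 units, depth limits the flow-through values of every member except Malat1.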
